A study of Mus musculus with 46 samples.

Results

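The Slit ligands, their Robo receptors and the srGAP proteins form a guidance pathway, and 8 of its genes were described here out of 56854 genes counted in both the hSS2 and the hSS1 tumors. They were 3 ligands (Slit1, Slit2 and Slit3), 2 receptors (Robo1 and Robo2) and 3 srGAP genes (Srgap1, Srgap2 and Srgap3). The genes were chosen by the strong fall of Srgap3 after Pbrm1 disruption in hSS2 tumors, so the values of the 8 genes in that contrast are a description without a test. All 8 genes were present in both count tables and passed the filter on low counts in both.

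Total RNA of 46 mouse synovial sarcomas was sequenced in bulk. Each tumor expressed a human fusion oncogene from the Rosa26 locus, either SS18::SSX2 (hSS2) or SS18::SSX1 (hSS1), and was started by injecting TATCre, a cell-permeable Cre recombinase, into a limb of a young mouse, controls included. In the floxed groups the same Cre also disrupted floxed Pbrm1, Arid1a or Arid1b, which encode subunits of the PBAF (Pbrm1) or canonical BAF (Arid1a, Arid1b) chromatin remodeling complexes. The groups were hSS2 control (n = 13), hSS2 Pbrm1-fl (n = 8), hSS2 Arid1a-fl (n = 8), hSS2 Arid1b-fl (n = 8), hSS1 control (n = 5) and hSS1 Pbrm1-fl (n = 4), and each tumor carries a mouse number of its own. Recombination is limited to the cells that Cre reached, and unrecombined host cells remain in the tumor.

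Slit proteins are secreted ligands that repel growing axons and migrating cells through Robo receptors at the cell surface. Inside the cell, srGAP proteins bind the Robo tail, switch off small GTPases and shape the membrane through an inverse F-BAR domain. The pathway is best known from the developing nervous system, and also acts in vessels, kidney and tumors.

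Library totals were 10.6M to 21.3M counts (M, 1e+06 counts) in hSS2 and 10.1M to 14.1M in hSS1. Pbrm1 was 105 ± 12.9 CPM (counts scaled to 1e+06 per library total, SD, n = 8) in hSS2 Pbrm1-fl and 249 ± 39.7 CPM (SD, n = 13) in hSS2 control tumors. Arid1a was 256 ± 14.7 CPM (SD, n = 8) in Arid1a-fl and 481 ± 91.1 CPM (SD, n = 13) in control tumors, and both differences passed edgeR's quasi-likelihood test (Benjamini-Hochberg adjusted p = 4.2e-12 and 7.0e-05). The lower Arid1b of Arid1b-fl tumors (193 ± 88.8 CPM, SD, n = 8, against 348 ± 115 CPM) and the lower Pbrm1 of hSS1 Pbrm1-fl tumors (197 ± 68.15 CPM, SD, n = 4, against 330.0 ± 32.8 CPM) did not pass it (Benjamini-Hochberg adjusted p = 0.145 and 0.193). hSS2 control replicate 9 had 254 CPM of Arid1a, which goes against its label, since the Arid1a-fl tumors held 239 to 287 CPM. hSS2 Arid1b-fl replicate 4 had 348 CPM of Arid1b, above the 110 to 285 CPM of the other 7 floxed tumors. In hSS1 Pbrm1-fl, replicate 3 had 98.2 CPM of Pbrm1, and the other 3 tumors had 215, 253 and 224 CPM. All 6 synovial sarcoma tumor-cell markers were detected, with a summed level of 461 to 1158 CPM over the 46 tumors. Summed skeletal muscle markers ran from 3.94 to 39279 CPM among the hSS2 control tumors alone. In bulk tissue, fewer cells of a type and less RNA per cell cannot be told apart.

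Srgap3 lies on mouse chromosome 6, from 112717971 to 112947266 on the minus strand (mm10, ENSMUSG00000030257). Its RefSeq promoter window (GRCm38.p6, chr6:112947217-112947516, minus strand), 250 bases before to 50 after the start, is shown because Srgap3 carries the largest difference among the 8 genes. Capitals mark each CG dinucleotide.

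Srgap3 promoter: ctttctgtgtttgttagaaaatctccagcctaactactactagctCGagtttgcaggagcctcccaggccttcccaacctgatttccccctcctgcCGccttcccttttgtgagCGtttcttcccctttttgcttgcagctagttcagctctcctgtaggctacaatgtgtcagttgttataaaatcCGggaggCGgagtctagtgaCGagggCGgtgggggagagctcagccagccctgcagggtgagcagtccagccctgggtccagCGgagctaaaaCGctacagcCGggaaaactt

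The letters CG (the same on both strands) occurred 10 times in this window, and 43.5% of 32851 RefSeq promoter windows of the same length held at least as many. The windows of Slit3 (41), Srgap1 (37), Slit2 (30), Srgap2 (17) and Robo1 (15) held more. Windows were matched for 7 of the 8 genes, and Robo2 had 3, with 9, 5 and 17. Slit1 was not matched.

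Slit2 and Slit3 also carry a microRNA gene each in an intron, Mir218-1 on chromosome 5 and Mir218-2 on chromosome 11. Both give the same mature mmu-miR-218-5p, shown because its host genes are 2 of the ligands described here. Capitals mark the seed, bases 2 to 8.

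mmu-miR-218-5p: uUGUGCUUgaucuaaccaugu

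The letters AAGCACA, which pair with this seed, were searched on the sense strand of the longest annotated 3′ untranslated region of each gene. They occurred in Slit2 (2 matches), Robo1 (1), Robo2 (2), Srgap2 (1) and Srgap3 (1), and not in these regions of Slit1, Slit3 and Srgap1. Of 21024 genes with such a region, 13.8% held a match. The regions searched ran from 365 bases (Slit3) to 4817 bases (Srgap3), and that share is not matched for length. The receptor matches are printed with the paired letters in capitals. They are matches of letters, and the microRNA itself was not analysed here.

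Robo1 (chr16:73045340-73045361, plus strand): ggttttaaAAGCACAatcacta
Robo2 (chr16:73895352-73895373, minus strand): ttggtgatAAGCACAaatctct
Robo2 (chr16:73893026-73893047, minus strand): gcagacccAAGCACAgcttctt

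To rank levels between genes, the mean CPM of a group was divided by the length of the longest coding transcript. In hSS2 control tumors Slit3 was the most abundant, at 168 ± 64.4 CPM per kb (SD, n = 13). Slit1 (64.6 ± 60.1) and Robo1 (44.7 ± 11.99) followed on the same scale, and their spreads overlap. Srgap2 stood at 18.9 ± 3.68 CPM per kb. Slit2 (11.1 ± 11.8), Srgap1 (11.04 ± 5.45), Srgap3 (8.98 ± 5.69) and Robo2 (7.74 ± 2.51) were lowest and lay within each other's spread. Slit3 ranked first in all 6 groups, also when length was counted over all exons. Srgap3 ranked last in hSS2 Pbrm1-fl, hSS2 Arid1b-fl and hSS1 Pbrm1-fl on either length.

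Tumor-to-tumor spread differed widely between the genes. Among the 13 hSS2 control tumors, Slit2 spanned a 97.9-fold range, Slit1 a 38.7-fold range and Srgap3 a 16.1-fold range. Robo1 (2.46-fold), Robo2 (2.58-fold), Slit3 (3.44-fold) and Srgap2 (1.96-fold) were far more even.

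Srgap3, an srGAP protein known from neuronal migration and neurite formation, was low in every hSS2 tumor with floxed Pbrm1. The 8 hSS2 Pbrm1-fl tumors had 14.6, 6.09, 3.23, 4.195, 7.73, 7.58, 1.00 and 4.80 CPM. The 13 hSS2 control tumors had 11.02 CPM at the lowest, 57.8 CPM at the median and 177 CPM at the highest. Of the floxed tumors, 7 lay below every control tumor, and the groups overlapped through control replicate 4 (11.02 CPM) and Pbrm1-fl replicate 1 (14.6 CPM). The log2 fold change was -3.69 (SE 0.45), a 12.9-fold lower level. Against only the 4 control tumors of the same mouse number range (2000 and over), it was -4.11, and without control replicate 9 it was -3.68.

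**Figure D1:**
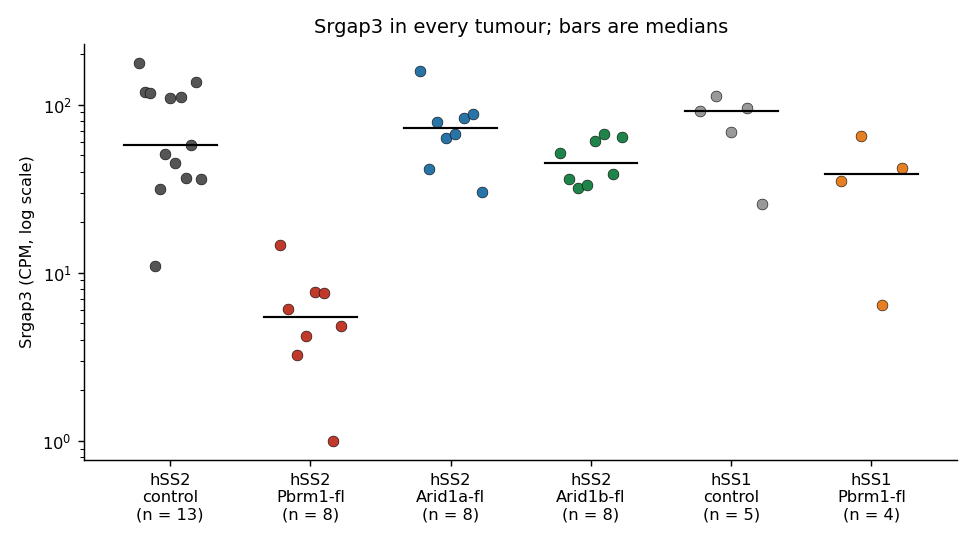
Srgap3 level in CPM on a log scale for each of the 46 tumors in 6 groups, 1 point per tumor with a bar at the median. The hSS2 Pbrm1-fl tumors sit between 1.00 and 14.6 CPM, and the hSS2 control tumors between 11.02 and 177 CPM.

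In the canonical BAF groups Srgap3 was not as low as in hSS2 Pbrm1-fl. Below the control median lay 2 of 8 Arid1a-fl tumors and 5 of 8 Arid1b-fl tumors. The hSS2 Arid1a-fl tumors had 30.04 CPM at the lowest, 72.8 CPM at the median and 158 CPM at the highest, and the hSS2 Arid1b-fl tumors had 32.03, 44.9 and 66.8 CPM. Every one of these 16 tumors was above every hSS2 Pbrm1-fl tumor. Against the control tumors, which also served the contrast on which the genes were selected, the log2 fold changes were -0.085 (SE 0.37) for Arid1a-fl and -0.66 (SE 0.38) for Arid1b-fl. Between Arid1a-fl and Arid1b-fl the log2 fold change was 0.58 (SE 0.42), which did not pass edgeR's quasi-likelihood test (Benjamini-Hochberg adjusted p = 0.572, 95% interval -0.27 to 1.42).

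The hSS1 tumors give the Pbrm1 comparison in samples that took no part in choosing the genes. Srgap3 was 92.0, 113, 68.4, 95.9 and 25.5 CPM in the 5 hSS1 control tumors and 35.3, 65.0, 6.41 and 41.7 CPM in the 4 hSS1 Pbrm1-fl tumors. All 4 floxed tumors lay below the control median, and 1 lay below every control tumor. The log2 fold change of -1.09 (SE 0.60, 95% interval -2.44 to 0.26) did not pass edgeR's quasi-likelihood test (Benjamini-Hochberg adjusted p = 0.380). The lowest floxed value belonged to replicate 3, which also had the least Pbrm1 of its group, whereas control replicate 5 had the lowest Srgap3 (25.5 CPM) and the highest Pbrm1 (356 CPM) of its group. Without Pbrm1-fl replicate 3 the log2 fold change was -0.73 (Benjamini-Hochberg adjusted p = 0.415 by edgeR). Whether the Srgap3 difference itself differed between hSS1 and hSS2 was not tested. In the same hSS1 comparison, 35 genes around Srgap3 had a median log2 fold change of -0.39, beside 0.011 over all genes tested. The part of the chromosome region in the Srgap3 value was not tested.

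**Figure D2:**
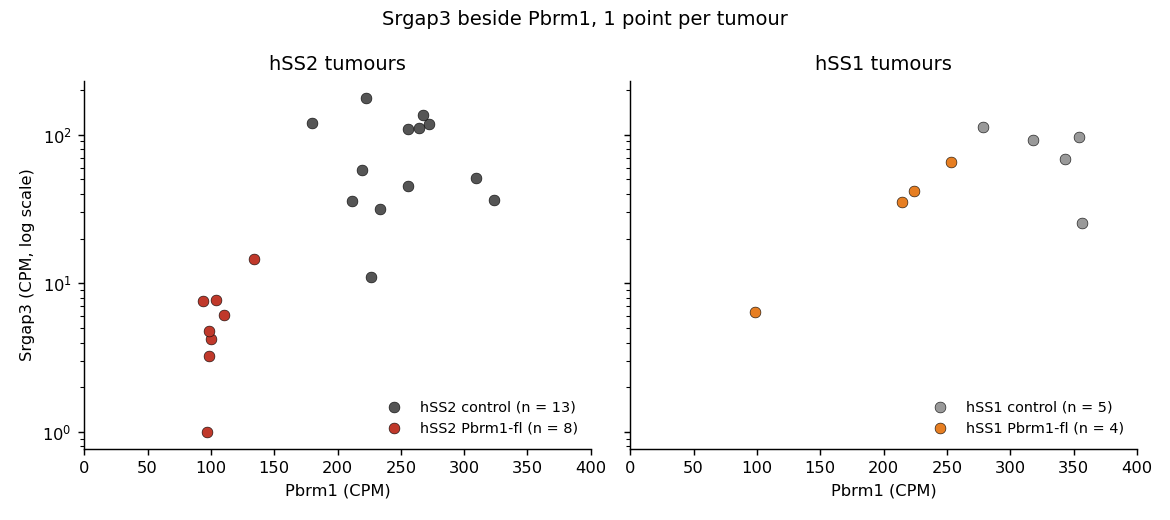
Srgap3 (CPM, log scale) against Pbrm1 (CPM) for the control and Pbrm1-fl tumors of each fusion, 1 point per tumor. The hSS1 Pbrm1-fl tumor at 98.2 CPM of Pbrm1 has 6.41 CPM of Srgap3, and the other 3 floxed hSS1 tumors have 35.3 to 65.0 CPM. The hSS1 control tumor with the highest Pbrm1 (356 CPM) has 25.5 CPM.

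Marker genes of other cell types also differed between these groups. Summed skeletal muscle markers had a median of 199 CPM in hSS2 Pbrm1-fl and 3424 CPM in hSS2 control tumors. Their ranges overlapped, at 4.66 to 14674 CPM and 3.94 to 39279 CPM, and 3 of 8 floxed tumors were above the control median. The 5 neuron markers summed to 22.7 to 129 CPM in hSS2 Pbrm1-fl (median 105) and 11.8 to 126 CPM in hSS2 control tumors (median 38.5), the direction opposite to Srgap3. In hSS1 Pbrm1-fl the same markers summed to 10.2 to 61.5 CPM against 12.7 to 220 CPM in control tumors, and the 6 fibroblast markers summed to 2342 to 7212 CPM against 721 to 2086 CPM. Neuron, macrophage, endothelial, Schwann cell, synovial sarcoma tumor-cell and proliferation markers were below the control median in 4 of 4 hSS1 Pbrm1-fl tumors. Their part in the Srgap3 values was not tested. Within groups, over the 37 hSS2 tumors, none of 10 marker lists passed adjustment with Srgap3, and the Pearson r lay between -0.24 (adipocyte, adjusted permutation p = 0.314) and 0.20 (endothelium, adjusted permutation p = 0.314).

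The other srGAP genes differed less. Srgap1 had 21.9 CPM at the lowest, 104 CPM at the median and 138 CPM at the highest in hSS2 control tumors, and 16.6, 48.4 and 82.7 CPM in hSS2 Pbrm1-fl tumors. All 8 floxed tumors were below the control median but 7 lay within the control range, and the log2 fold change was -0.83 (SE 0.30). Srgap2, which acts in neuronal migration and spine maturation, had the narrowest spread, at 101, 153 and 198 CPM in control and 117, 134 and 143 CPM in Pbrm1-fl tumors. Its log2 fold change was -0.20 (SE 0.085). In hSS1, Srgap1 was 48.9, 104, 118, 139 and 54.2 CPM in control and 57.99, 30.1, 97.4 and 43.1 CPM in Pbrm1-fl tumors, with a log2 fold change of -0.69 (SE 0.42) that did not pass edgeR's quasi-likelihood test (Benjamini-Hochberg adjusted p = 0.427). Srgap1 shares exon sequence on the same strand with Gm48804, whose counts equalled 12.9% of those of Srgap1 in hSS2. How far this sharing affects the level of Srgap1 cannot be told from the counts. Srgap3 overlaps the antisense gene Gm44081, whose counts equalled 0.242% of those of Srgap3.

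**Figure D3:**
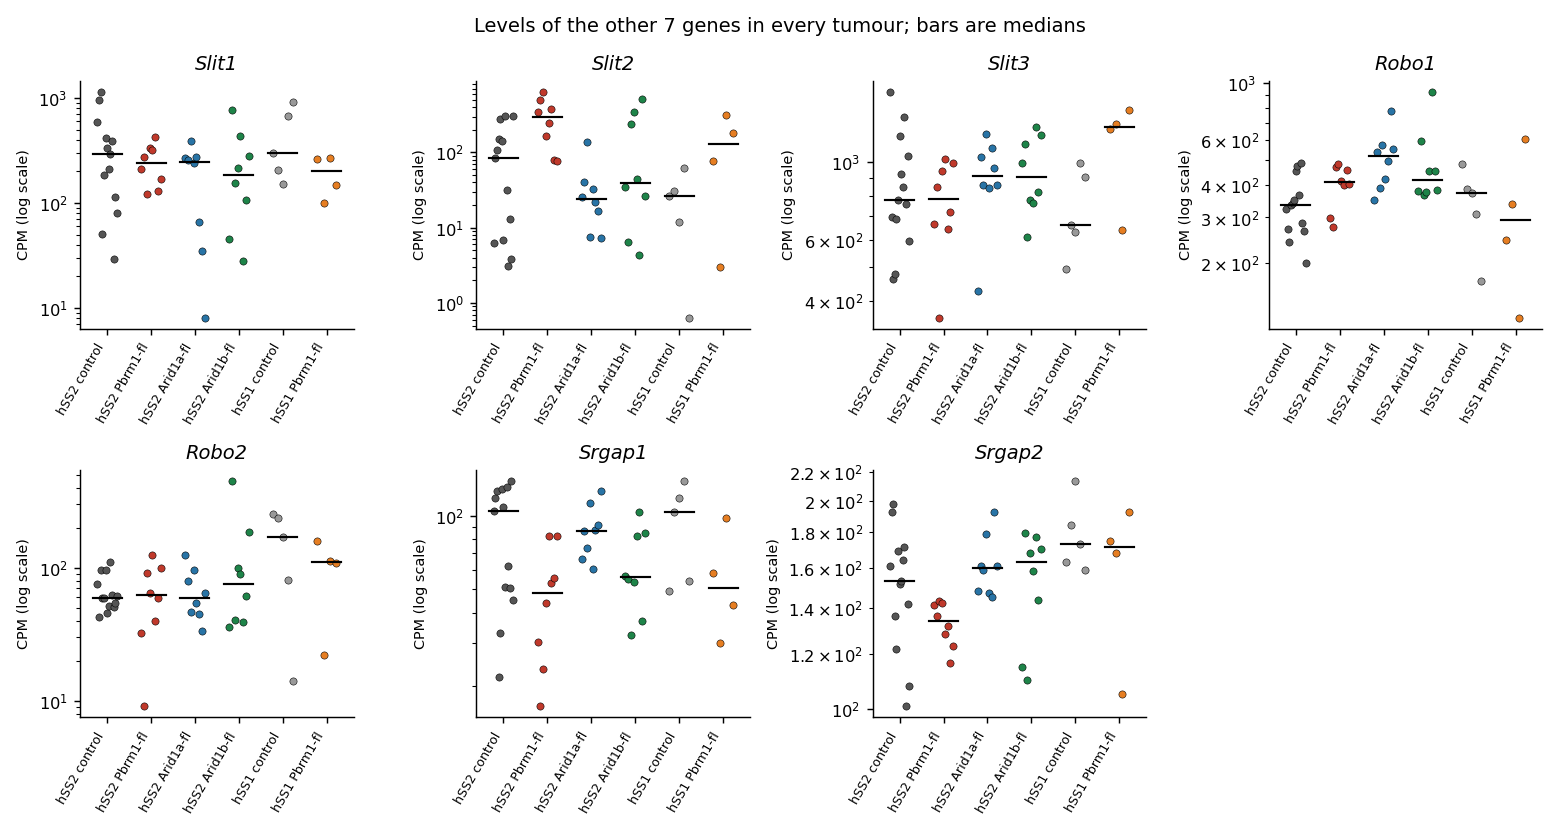
Levels of Slit1, Slit2, Slit3, Robo1, Robo2, Srgap1 and Srgap2 in CPM on log scales, 1 point per tumor in 6 groups with a bar at each median. Slit2 spans 3.08 to 302 CPM among hSS2 control tumors, and Srgap2 spans 101 to 198 CPM.

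Among the ligands, Slit2 was the most variable. The 8 hSS2 Pbrm1-fl tumors had 342, 493.3, 629, 164, 245, 379, 80.3 and 77.5 CPM, and the 13 control tumors had 3.08 CPM at the lowest, 83.6 CPM at the median and 302 CPM at the highest. Of the floxed tumors, 4 were above every control tumor, and the log2 fold change was 1.43 (SE 0.78). In hSS1, Slit2 was 26.7, 30.8, 11.9, 62.1 and 0.642 CPM in control tumors and 76.2, 2.995, 312 and 180 CPM in Pbrm1-fl tumors. There, 3 of 4 floxed tumors were above every control tumor and 1 was below the control median. The log2 fold change of 2.46 (SE 1.19, 95% interval -0.24 to 5.15) did not pass edgeR's quasi-likelihood test (Benjamini-Hochberg adjusted p = 0.327).

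In the Arid1a-fl tumors Slit2 had 7.33 CPM at the lowest, 23.9 CPM at the median and 138 CPM at the highest. The Arid1b-fl tumors had 4.40, 39.3 and 519 CPM, so the ranges overlapped. The log2 fold change between Arid1a-fl and Arid1b-fl was -2.14 (SE 0.92, unadjusted p = 0.0263), which did not pass edgeR's quasi-likelihood test after Benjamini-Hochberg adjustment (adjusted p = 0.342). With the mouse number range as a covariate it was -0.82. Against all 13 control tumors the Arid1a-fl log2 fold change was -1.67 (SE 0.85), and this also missed the threshold of edgeR (Benjamini-Hochberg adjusted p = 0.233). The 5 control tumors of the same mouse number range (under 1000) had 3.08 CPM at the lowest, 12.9 CPM at the median and 302 CPM at the highest. The Arid1a-fl median was thus not below the median of these control tumors, but the order of the means was reversed. Arid1a-fl tumors averaged 36.5 CPM. The mean of these control tumors was higher, 70.7 CPM, and their SD of 130 CPM exceeded it. When only these control tumors were used, the log2 fold change of Slit2 did not turn direction.

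Slit1 ranged from 29.2 to 1131 CPM in hSS2 control tumors (median 294) and from 121 to 420 CPM in hSS2 Pbrm1-fl tumors (median 241), with a log2 fold change of -0.55 (SE 0.59). Control tumors of the same mouse number range averaged 679 CPM (SD 475, n = 4), and against them alone it was -1.44. In hSS1 it was 298, 206, 150, 677 and 924 CPM in control and 260, 99.85, 269 and 147 CPM in Pbrm1-fl tumors. The difference of -1.24 on the log2 scale (SE 0.59) did not pass edgeR's quasi-likelihood test (Benjamini-Hochberg adjusted p = 0.321). Slit3, the most abundant ligand, was 462 to 1589 CPM in hSS2 control tumors and 359 to 1020 CPM in hSS2 Pbrm1-fl tumors, a log2 fold change of -0.20 (SE 0.20). In hSS1 it was 496, 663, 631, 994 and 906 CPM in control and 1245, 1285, 641 and 1415 CPM in Pbrm1-fl tumors, so 3 of 4 floxed tumors were above every control tumor. Its log2 fold change of 0.62 (SE 0.28) missed the threshold of edgeR as well (Benjamini-Hochberg adjusted p = 0.292).

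Robo1 was the 1 gene of the 8 called between groups by edgeR apart from Srgap3 in the contrast used for selection, and it was called narrowly. It was 199 CPM at the lowest, 337 CPM at the median and 491 CPM at the highest in hSS2 control tumors, and 352, 518 and 781 CPM in Arid1a-fl tumors. All 8 floxed tumors were above the control median and 5 were above every control tumor. Robo1 rose by a log2 fold change of 0.56 (SE 0.16, edgeR quasi-likelihood test, Benjamini-Hochberg adjusted p = 0.0479). The call was lost without filtering (adjusted p = 0.0678 by edgeR), with mouse number range as a covariate (0.0568), with control tumors of that range only (0.0687), without control replicate 9 (0.0548) and in 14 of 21 fits that left out 1 tumor in all. The Arid1b-fl tumors had 366, 419 and 920 CPM, all above the control median, and a log2 fold change of 0.58 (SE 0.16) that did not pass edgeR's quasi-likelihood test after Benjamini-Hochberg adjustment (adjusted p = 0.344). Between Arid1a-fl and Arid1b-fl it was -0.017 (SE 0.18, 95% interval -0.38 to 0.35). In Arid1a-fl, proliferation and tumor-cell markers were above the control median in 7 of 8 tumors each, neuron markers in 1 of 8 and Schwann cell markers in 0 of 8. Skeletal muscle, adipocyte and lymphocyte markers were above it in 2 of 8 each. The largest mean differences in log2 summed CPM were those of skeletal muscle (-2.07) and adipocyte markers (-1.22). Within hSS2 groups Robo1 had Pearson's r of 0.12 with proliferation (adjusted permutation p = 0.613), 0.36 with tumor-cell (0.0961), -0.08 with neuron (0.728) and -0.43 with Schwann cell markers (0.0224). Its largest r in size was with macrophage markers (-0.46, adjusted permutation p = 0.0185). Over the hSS1 tumors r was -0.61 with macrophage markers and 0.68 with Schwann cell markers, the latter of the other sign. The part of these markers in the Robo1 difference was not tested.

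Robo2 was 42.9 to 111 CPM in hSS2 control tumors (median 58.9) and 9.11 to 126 CPM in Pbrm1-fl tumors (median 62.1), with a log2 fold change of -0.055 (SE 0.38). In Arid1b-fl it reached 448 CPM in replicate 2 and was 35.6 to 185 CPM in the other 7 tumors. Its log2 fold change there was 0.95 (SE 0.37, edgeR quasi-likelihood test, Benjamini-Hochberg adjusted p = 0.718) with that tumor and 0.27 without it. In hSS1, Robo2 was 255, 234, 169, 80.8 and 14.1 CPM in control and 160, 22.2, 113 and 109 CPM in Pbrm1-fl tumors, with overlapping ranges.

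**Figure D4:**
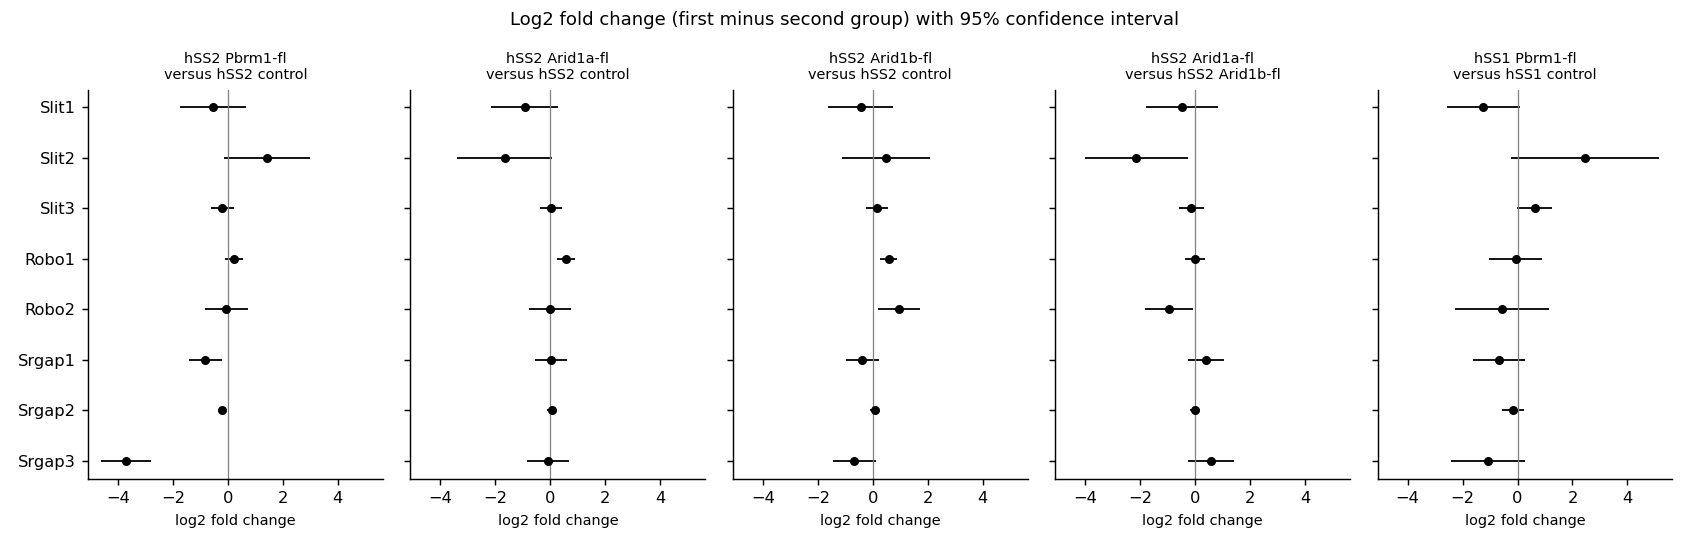
Log2 fold change of the 8 genes (first minus second group) in 5 comparisons, with 95% confidence intervals from edgeR. Srgap3 in hSS2 Pbrm1-fl, the value the genes were selected on, stands at -3.69, and in hSS1 it stands at -1.09 with an interval that includes 0.

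Set against all genes tested, the counts were as follows. In hSS2 Pbrm1-fl versus control, 7.35% of 20083 genes passed an adjusted p of 0.05 and 1 of the 8 genes did, Srgap3, which chose the contrast. In Arid1a-fl versus control 3.17% passed and 1 of the 8 did, Robo1. In Arid1b-fl versus control 0.0548% passed, in Arid1a-fl versus Arid1b-fl 0.0996% passed, and in hSS1 Pbrm1-fl versus control 0.00562% of 17786 genes passed. In these 3 comparisons 0 of the 8 genes passed edgeR or DESeq2, and 2, 2 and 0 of them had an unadjusted p under 0.05 by edgeR. Over all genes tested, 1250 of 20083, 2517 of 20083 and 3059 of 17786 had such a p. The groups did not overlap for 0.279% of genes in hSS2 Pbrm1-fl versus control and for 7.12% in hSS1, and for 0 of the 8 genes in either. The median log2 fold change of the 8 genes was -0.20 in hSS2 Pbrm1-fl and -0.36 in hSS1 Pbrm1-fl, beside -0.0043 and 0.011 over all genes tested.

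Within groups, Slit2 and Slit3 ran in opposite directions. After the group median was subtracted from log2 CPM, Pearson's r over the 37 hSS2 tumors was -0.63 (permutation p = 5e-05, adjusted over 28 pairs 0.0014), and Spearman's rho was -0.73 (permutation p = 1e-05, the smallest that 100000 permutations can give, adjusted 0.00028). Without the 2 tumors farthest from the median of Slit2, r was -0.58. Among the 13 control tumors alone r was -0.75, and over the 9 hSS1 tumors it was -0.35, given as a value only. Slit2 and Slit3 was the only one of the 28 pairs to pass both tests. Srgap3 passed with none of the other 7 genes over the 37 tumors, and its highest r was 0.42 with Srgap1 (adjusted permutation p = 0.106), or 0.18 without the 2 most distant tumors. Among the 13 control tumors alone that r was 0.88 (adjusted permutation p = 0.0046), and rho was 0.72 (adjusted permutation p = 0.0859).

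**Figure D5:**
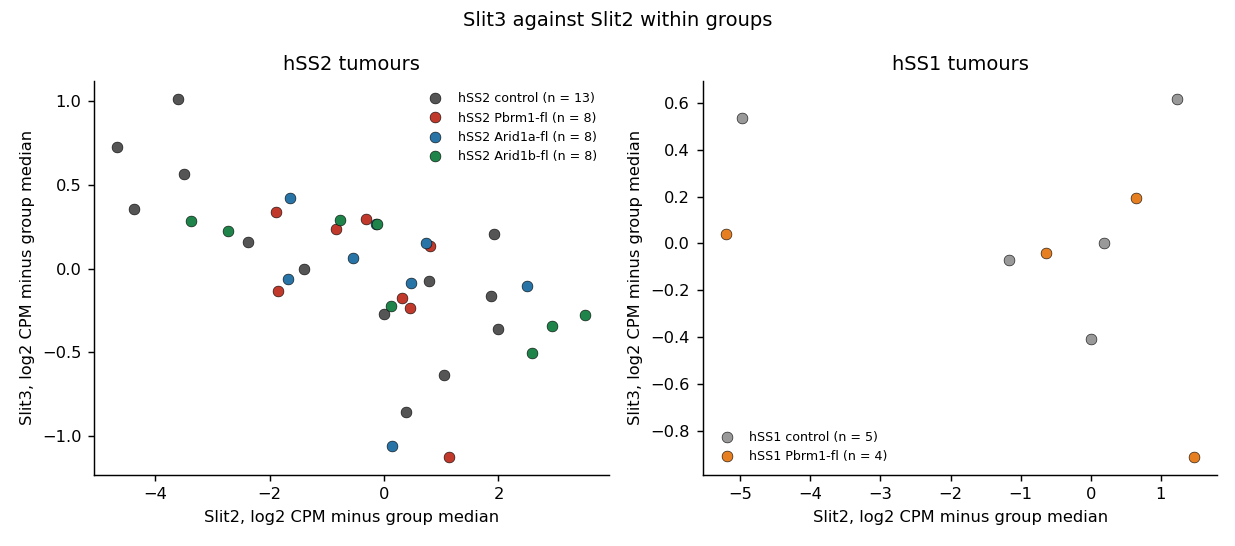
Slit3 against Slit2, both as log2 CPM minus the group median, 1 point per tumor, with hSS2 on the left and hSS1 on the right. Pearson's r is -0.63 over the 37 hSS2 tumors and -0.35 over the 9 hSS1 tumors.

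The genes also varied with the marker lists. Of 80 relations between the 8 genes and 10 lists, 22 passed by both Pearson's r and Spearman's rho, 8 of them for Slit2, 5 for Srgap1, 3 for Srgap2, 2 each for Slit3 and Robo1, 1 each for Slit1 and Robo2 and 0 for Srgap3. Those of the largest r in size for Slit1, Slit2, Slit3, Srgap1 and Robo2 follow, with the tumor-cell list for Slit2. Within hSS2 groups, Slit2 rose with macrophage markers (Pearson's r 0.65, adjusted permutation p = 0.00080 over 80 tests) and fell with synovial sarcoma tumor-cell markers (r -0.63, adjusted permutation p = 0.0016). Slit2 also passed with the skeletal muscle, lymphocyte, fibroblast, Schwann cell, neuron and adipocyte lists, at r of 0.43 to 0.54. Some of these lists lay near the floor. All 5 lymphocyte markers had a median under 1 CPM in every group, and their sum had group medians of 0.734 to 2.94 CPM. By group, 2 to 3 of 5 Schwann cell markers and 0 to 4 of 4 adipocyte markers had a median under 1 CPM. Slit3 rose with the tumor-cell markers (r 0.62, adjusted permutation p = 0.0013). The part of these markers in the opposite course of Slit2 and Slit3 was not tested. Slit1 rose with endothelial markers (r 0.57, adjusted permutation p = 0.0051), Srgap1 fell with fibroblast markers (r -0.68, adjusted permutation p = 0.0012) and Robo2 fell with skeletal muscle markers (r -0.53, adjusted permutation p = 0.0098). Spearman's rho for these 6 relations was 0.69, -0.68, 0.69, 0.71, -0.64 and -0.54 (adjusted permutation p from 0.00027 to 0.0109), and without the 2 most distant tumors r was 0.63, -0.60, 0.57, 0.56, -0.68 and -0.54. Over the 9 hSS1 tumors the same r were 0.20, -0.28, 0.30, 0.44, -0.23 and 0.41. Of the 22 relations, 10 had the other sign in hSS1, among them Robo2 with muscle markers and Slit2 with fibroblast markers (0.54 and -0.60).

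Among 31 other genes of the Slit-Robo pathway, 3 were lower and 0 higher in hSS2 Pbrm1-fl tumors by edgeR's quasi-likelihood test, 9.68% beside 7.35% of all genes. Pak3, a p21-activated kinase downstream of Rac and Cdc42, fell by 1.61 on the log2 scale (SE 0.35, Benjamini-Hochberg adjusted p = 0.0037). Pak1, of the same kinase family, fell by 1.00 (SE 0.26, adjusted p = 0.0154 by edgeR), and the adaptor Nck1 fell by 0.34 (SE 0.09, adjusted p = 0.0124 by edgeR). Pak3 was also lower in Arid1a-fl tumors, with a log2 difference of -1.26 (SE 0.34, edgeR Benjamini-Hochberg adjusted p = 0.0411), the 1 gene of this list called there (3.23% beside 3.17% of all genes). In the other 3 comparisons 0 of 31 passed edgeR, with 1, 3 and 5 at an unadjusted p under 0.05. Over all genes tested these were 1250 of 20083, 2517 of 20083 and 3059 of 17786.

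Other guidance families held calls in both directions in hSS2 Pbrm1-fl tumors. Of 21 ephrins and Eph receptors tested, 4 were higher and 1 lower, 23.8% beside 7.35% of all genes. The ligand Efnb2 rose by 0.95 (SE 0.23, edgeR Benjamini-Hochberg adjusted p = 0.0079) and the ligand Efnb3 fell by 1.43 (SE 0.37, adjusted p = 0.0148 by edgeR) on the log2 scale. Of 31 semaphorins and their receptors 9.68% were called. Of these 2 were higher, among them the receptor Nrp2 at a log2 difference of 0.97 (SE 0.18, edgeR Benjamini-Hochberg adjusted p = 0.0010 by edgeR), and 1 was lower, Sema5a at -1.67 (SE 0.40, adjusted p = 0.0087 by edgeR). Of 14 netrins and receptors, 1 (7.14%) was lower, the netrin receptor Dcc at -3.42 (SE 0.76, adjusted p = 0.0048 by edgeR), whose mean was 2.99 CPM in control tumors.

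Genes around Srgap3 were counted as well. Of 74 genes lying within 1 Mb on either side, 39 were tested in hSS2, and 1 (2.56% beside 7.35% of all genes) was lower in Pbrm1-fl tumors, Oxtr, which averaged 5.58 CPM in control tumors with an SD of 15.9 and 0.678 CPM in the floxed tumors with an SD of 0.817 (n = 13 and 8). Rad18, 21.3 kb away, had a log2 fold change of 0.058 (SE 0.28), and Thumpd3, 99.0 kb away on the other side, had 0.20 (SE 0.11). Neither passed edgeR's quasi-likelihood test (Benjamini-Hochberg adjusted p = 0.927 and 0.296). Gt(ROSA)26Sor, at the Rosa26 locus that holds the fusion oncogene, lies 120 kb from Srgap3 and had a log2 fold change of 0.055 (SE 0.16) in hSS2 and 0.32 (SE 0.28) in hSS1 Pbrm1-fl tumors, without passing edgeR (Benjamini-Hochberg adjusted p = 0.876 and 0.578). In Arid1a-fl tumors Ttll3 (-0.77), Lhfpl4 (-1.80) and Irak2 (-0.68) were lower by edgeR (Benjamini-Hochberg adjusted p = 0.0272, 0.0301 and 0.0489), 7.69% of those tested beside 3.17% of all genes, and the Srgap3 log2 fold change was -0.085. In hSS1 Pbrm1-fl tumors the 35 tested neighbors had a median log2 fold change of -0.39 beside 0.011 over all genes. There Rad18 was -0.98 (SE 0.20, edgeR Benjamini-Hochberg adjusted p = 0.117) and Thumpd3 was -0.63 (SE 0.15, adjusted p = 0.122 by edgeR). For both, all 4 floxed tumors lay below every control tumor, and groups did not overlap for 7.12% of all genes tested. Of the 35, 0 passed edgeR, with 10 at an unadjusted p under 0.05, beside 3059 of 17786 over all genes. DESeq2 called 6 of the 35, beside 1184 genes among the 17786 that passed the filter.

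The genes whose within-group course over the 37 hSS2 tumors was most like that of Srgap3, of 17286 genes compared, were Klhl3 (Spearman's rho 0.77), Fam49a (0.71), Rgs16 (0.70), Prkacb (0.69) and B3galt5 (0.68). Over the 9 hSS1 tumors their rho with Srgap3 was 0.57, 0.57, 0.17, 0.83 and 0.45. Of the 7 other pathway genes described here, Srgap1 was nearest, at rank 711 (rho 0.38).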

How the data were processed

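Total RNA of 46 frozen mouse tumors was depleted of ribosomal RNA and sequenced from stranded libraries. The authors deposited 2 tables of raw counts per gene, made, according to the submitters' processing notes, with STAR 2.7.11 and featureCounts 1.6.3 on mm10. The counting strand setting and annotation release are not given in the sources used here. Gene positions are from GENCODE M21, promoters and microRNAs from RefSeq (GRCm38.p6).

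Groups came from the genotype labels. Each table was filtered with filterByExpr, scaled by TMM and fitted with edgeR 4.0.16 (robust quasi-likelihood, two-sided, Benjamini-Hochberg over all genes, threshold 0.05) in R 4.3.3. The hSS2 fit held all 37 tumors and the hSS1 fit 9. DESeq2 1.42.0, other filters and normalization, leave-one-out and mouse number ranges were alternatives. Levels are CPM of the library total, as planned, and correlations used TMM-scaled log2 CPM (prior count 2). Levels were also computed on the TMM-scaled library size, and that alternative was added after the levels on both scales had been seen. The correlations with marker lists were not planned. The scripts were tested on simulated data.

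The genes and lists were chosen with earlier results of these data known. Named were the 8 genes, the targeted gene, per list up to 3 higher and 3 lower genes of smallest adjusted p with a mean of at least 1 CPM, every called neighbor of Srgap3 (up to 6) and the nearest, and the 5 genes most like it. Of these, a selection is printed. Nothing in the labels says that tumors of a group came from separate litters, so p-values measure the spread between tumors only. Mouse number ranges coincide with the floxed gene.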

Additional observations from a re-analysis of the deposited data

Results flagged for a closer look

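Of 40 sets of values checked (8 genes in the 5 groups of 4 to 8 tumors), 3 held a tumor far from the others on the log2 scale, and chance gives about 1 in 20, or 2. All 3 were low values of Slit3. hSS2 Pbrm1-fl replicate 3 had 359 CPM and the other 7 tumors 642 to 1020 CPM. hSS2 Arid1a-fl replicate 1 had 428 CPM and the others 847 to 1208 CPM. hSS1 Pbrm1-fl replicate 3 had 641 CPM and the others 1245 to 1415 CPM. The first and the last also had the highest Slit2 of its group, at 629 and 312 CPM.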

How the results depend on the processing

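The paper describes littermate controls, but the labels name no litter, so no paired analysis was possible. Each tumor carries a mouse number of its own, and the groups share none. The Srgap3 log2 fold change in hSS2 Pbrm1-fl was -4.11 to -3.70 in the planned settings other than leaving out a tumor and -4.04 to -3.53 when 1 tumor was left out. All 48 group means on the TMM scale, a setting added after the data had been seen, moved by less than 1 SD. Of the 8 genes, 2 were called in hSS2 Pbrm1-fl against control tumors of the same mouse number range (Srgap2 added) and by DESeq2 (Srgap1 added). With 1 tumor left out, 1 to 2 were called (2 without control replicate 4 or 5 or Pbrm1-fl replicate 8). That contrast chose the genes, so these counts describe the fits and are not a test of Srgap1 or Srgap2. In Arid1a-fl 0 were called at a threshold of 0.01, without filtering, with the range as covariate or with same-range controls, and 0 to 1 with 1 tumor left out. Over all genes, hSS2 Pbrm1-fl calls (1476) were 503 at 0.01, 446 with same-range controls, 477 with the covariate and 1044 to 1921 with 1 tumor left out. Arid1a-fl calls (637) were 26, 1095 and 1404 in that order, 1696 by DESeq2, 243 without filtering and 56 (without Arid1a-fl replicate 8) to 1416 (without Arid1a-fl replicate 6). Arid1b-fl calls (11) were 6, 0 and 0, 27 without filtering and 6 to 15. Arid1a-fl versus Arid1b-fl calls (20) were 10 at 0.01, 0 with the covariate, 215 by DESeq2 and 15 to 76. hSS1 calls (1) were 0 at 0.01, at 1 CPM and with same-range controls, 1184 by DESeq2 and 0 to 4. Neighbors of Srgap3 called were 0 at 0.01 and 0 to 2 with 1 tumor left out in hSS2 Pbrm1-fl (1), and in Arid1a-fl (3) 0 at 0.01, 5 with same-range controls, 6 with the covariate, 5 by DESeq2 and 0 to 4, and 6 by DESeq2 in hSS1 (0). Log2 fold changes that turned direction were small or uncertain. With same-range controls they were Robo1 0.19 and Robo2 0.20 in hSS1, Slit1 0.11 and Slit3 -0.058 in Arid1a-fl, and Slit2 -0.24 in Arid1b-fl. With the covariate they were Slit1 0.083 and Slit3 -0.063 in Arid1a-fl, Slit2 -0.24 in Arid1b-fl, and Robo1 0.30, Slit1 0.18 and Srgap2 0.090 between Arid1a-fl and Arid1b-fl. In that comparison Robo1 was 0.0016 at 1 CPM, and Srgap2 was 0.0063 with RLE, 0.011 at 1 CPM and 0.0058 by DESeq2. Robo2 in Arid1a-fl was 0.011 with RLE and by DESeq2, 0.016 without filtering and 0.0055 at 1 CPM. With 1 tumor left out, Robo1 ran from -0.54 to 0.21 in hSS1 and from -0.12 to 0.14 between Arid1a-fl and Arid1b-fl, where Srgap2 ran from -0.046 to 0.048. In Arid1a-fl, Robo2 ran from -0.19 to 0.10, Slit3 from -0.056 to 0.12 and Srgap1 from -0.076 to 0.090, and in Arid1b-fl Slit2 ran from -0.092 (without Arid1b-fl replicate 7) to 0.71. The causes were not tested. Among the 13 control tumors alone the pair of the 8 genes passing both correlation tests was Slit1 and Srgap2 (r 0.85, adjusted permutation p = 0.0046), and Slit2 and Slit3 missed by Spearman's rho (adjusted permutation p = 0.0859). Low counts limit Srgap3 in hSS2 Pbrm1-fl and Slit2 in its lowest tumors.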
